A study of Mus musculus with 76 samples.

Results

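Alveolar septa of unexposed Noxo1 knockout mice were compared between 8 and 3 months. The comparison holds the 10 arrays whose titles name knockout control septa, 5 at each time, out of 76 arrays in the series and 39 septa arrays. Each array was hybridised with amplified, Cy5-labelled cDNA from total RNA, and values are log2 signals. All 10 mice carried the Noxo1 allele named C57BL/6-Noxo1(tm1881_17.2Arte) in the labels and were housed 5 to a cage. They belonged to the control arm of a cigarette smoke study, so both groups share the deletion and the absence of smoke. The series also holds wild-type mice and smoke-exposed mice of both genotypes, used below for comparison. By the labels, smoke exposure began at week 12 and was given for 8 months. It ran for 6 hours per day on 5 days per week, at 140 mg particles per cubic metre. Whether the 3 and 8 months of the controls are counted from that week is not stated. The part of Noxo1 that the allele removes, the sex of the mice and the date of dissection or hybridisation are not given in the labels either. Age and the time at which samples were collected and processed therefore cannot be told apart. Below, young and older mice are short names for the 3-month and the 8-month group and give no age. The 10 arrays carry 10 different mouse numbers, so the spread between them is a spread between mice.

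Noxo1 encodes the organizer subunit of the NOX1 NADPH oxidase, a membrane enzyme complex that passes electrons from NADPH to oxygen and so makes superoxide. Alveolar septa are the thin walls between air spaces, built from flat type 1 pneumocytes, surfactant-making type 2 pneumocytes, a dense capillary net and interstitial fibroblasts, with resident and passing leukocytes. As mice grow older, their septa are known to change in matrix turnover, in protein folding capacity and in immune cell content.

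The arrays carried the defining transcripts of this tissue at both times. Aqp5, the water channel of type 1 pneumocytes, stood at 11.57 ± 0.28 (SD, n = 5) at 3 months and 11.70 ± 0.34 at 8 months. Sftpc, the surfactant protein of type 2 pneumocytes, stood at 15.02 ± 0.36 and 15.21 ± 0.11. Of 12 type 1 pneumocyte markers 7 lay higher at 8 months, with a median change of 0.05, and of 14 capillary markers 8 did, with a median change of 0.02. The airway secretory gene Scgb1a1 was also high, at 15.06 ± 0.95 and 14.08 ± 1.27, so the septa arrays also carried airway transcripts. Scgb1a1 differed by -0.98 ± 0.43 (SE). Of 11 club and goblet cell genes 7 lay below 0 (median -0.14), and 4 did without mouse 7 described below (median 0.09). Whether the share of airway tissue differed between the times was not tested. Odorant and vomeronasal receptor genes, which lung is not known to use, served as a guide to background. Their 95th percentile over the septa arrays was 3.21, and 60.9% of all genes lay above it. The 5 arrays at 3 months correlated with the other septa arrays at a median of 0.916 to 0.935 and those at 8 months at 0.897 to 0.929.

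Sex-linked transcripts set some arrays apart. In 2 of the 5 mice at 3 months (replicates 1 and 5), but in none of the 5 at 8 months, the septa showed a female pattern, with high Xist and low Y-linked signal. The other septa pairs were not balanced throughout. Smoke-exposed wild types had the pattern in 0 of 5 and 3 of 5 arrays at 3 and 8 months. Smoke-exposed knockouts had it in 3 of 5 and 4 of 5, and wild-type controls in 1 of 4 and 1 of 5. Mouse 7, replicate 2 at 8 months, had a male pattern in its septa array and a female pattern in its vessel array, so 1 of its arrays may not come from the mouse named. Mouse 29, a wild-type control at 8 months, also had opposite patterns, with the female pattern in septa. Whether arrays of mice 7 and 29 were exchanged was not tested. Over the 20 leading genes described below, the change without mouse 7 was 0.873 to 1.16 times the full value and that without the 2 female-pattern arrays 0.842 to 1.42 times, and single values are given where they matter. Without mouse 29 the test of knockout against wild-type controls with limma also called 0 genes (788 had an unadjusted p under 0.05).

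No gene passed the adjusted threshold of 0.05 between 8 and 3 months (0 of 20710, background 0%; limma with Benjamini-Hochberg adjustment). At an unadjusted p under 0.05 there were 1444 genes (6.97%), of which 840 (4.06%) were higher and 604 (2.92%) lower at 8 months. Across all genes 53.2% lay above 0 and the median change was 0.04. Precision is limited by the number of arrays: residual SD between mice of a septa group had a median of 0.738 log2 units. The genes described below are the 10 with the lowest p in each direction, and none of them passed. Groups did not overlap in 12 of these 20 genes, against 290 of all genes (1.4%). The p that ranked these genes also favours separated groups, so nothing is read from that difference. At the limit of the choice, Irf2 was the last higher gene taken, with an unadjusted limma p of 0.000447 in the fit across all genes, and Prcd the first left out, with 0.000463. Among the lower genes Lrrc17 was the last taken (0.000558) and Pkp4 the first left out (0.000569).

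The promoters of 4 genes are shown because results on the stress and tubulin genes refer to them: Nfe2l2 and Dnajb9 lead the higher genes, Hspa5 is the chaperone that Dnajb9 serves, and Tubb2a leads the lower genes. Each run is the 250 bases before the transcription start in RefSeq's mouse table, build GRCm38.p6, read 5′ to 3′ on the gene's strand. Capitals mark a match to a searched motif. The Nfe2l2 window is chr2:75704664-75704913 on the minus strand, Dnajb9 is chr12:44210069-44210318 on the minus strand, Hspa5 is chr2:34771840-34772089 on the plus strand, and Tubb2a is chr13:34078009-34078258 on the minus strand.
Nfe2l2: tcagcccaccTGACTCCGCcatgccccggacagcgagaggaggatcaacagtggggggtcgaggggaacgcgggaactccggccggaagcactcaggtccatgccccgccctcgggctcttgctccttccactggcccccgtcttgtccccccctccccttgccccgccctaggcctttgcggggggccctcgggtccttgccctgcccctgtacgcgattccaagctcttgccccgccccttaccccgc
Dnajb9: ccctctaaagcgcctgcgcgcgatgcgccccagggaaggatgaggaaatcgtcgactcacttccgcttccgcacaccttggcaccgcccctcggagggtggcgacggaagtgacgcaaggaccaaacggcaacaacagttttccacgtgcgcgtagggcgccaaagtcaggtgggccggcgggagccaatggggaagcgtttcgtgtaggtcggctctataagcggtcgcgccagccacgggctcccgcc
Hspa5: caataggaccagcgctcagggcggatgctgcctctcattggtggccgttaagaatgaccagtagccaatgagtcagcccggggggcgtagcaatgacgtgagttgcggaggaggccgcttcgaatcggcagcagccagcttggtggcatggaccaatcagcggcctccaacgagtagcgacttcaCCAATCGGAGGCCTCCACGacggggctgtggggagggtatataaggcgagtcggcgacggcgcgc
Tubb2a: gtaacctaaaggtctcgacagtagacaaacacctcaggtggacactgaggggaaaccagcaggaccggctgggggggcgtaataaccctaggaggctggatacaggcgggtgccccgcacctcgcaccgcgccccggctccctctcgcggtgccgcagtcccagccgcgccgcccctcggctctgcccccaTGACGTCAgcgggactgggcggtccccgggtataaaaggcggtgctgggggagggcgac
Motifs were searched on both strands. The endoplasmic reticulum stress element, the letters CCAAT followed after 9 free bases by CCACG, to which NF-Y and ATF6 bind, lies at position 186 of the Hspa5 window, counted from its 5′ end. It occurs in 37 of 32851 promoter windows (0.113%) and in 5 of the 15 windows matched to the endoplasmic reticulum stress genes (33.3%), those of Calr, Creld2, Hsp90b1, Hspa5 and Pdia6. The antioxidant response core TGACNNNGC begins at position 11 of the Nfe2l2 window and is present in 10.2% of all windows, in 5 of 16 windows of the antioxidant list (31.2%, 14 genes matched) and in 5 of 13 tubulin windows (38.5%). The cyclic AMP response element TGACGTCA, which reads the same on both strands, lies at position 192 of the Tubb2a window and in 1.55% of all windows. It is present in 1 of 13 tubulin windows and in 2 of 22 windows of the immediate early list (18 genes matched), those of Btg2 and Dusp1. The Dnajb9 window holds none of these letters. The antioxidant and cyclic AMP motifs share their first letters, TGAC, and no matches overlap in the windows shown. A match describes the sequence and does not show a bound factor.

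Nfe2l2 had the lowest p of all genes. It encodes NRF2, the transcription factor that drives antioxidant and detoxifying genes. Its log2 signal was 7.92, 8.07, 6.52, 7.62 and 8.18 in the 3-month mice (replicates 1 to 5) and 9.57, 8.99, 9.15, 9.12 and 9.07 in the 8-month mice. Every 8-month mouse lay above every 3-month mouse, and replicate 3 was the lowest at 3 months. The difference was 1.52 ± 0.29 (SE), 2.86-fold, with an adjusted p of 0.0918 in limma. Without mouse 7 it was 1.56 (adjusted p = 0.177), and without the 2 female-pattern arrays 1.77 (adjusted p = 0.0465), which passes.

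The antioxidant and NRF2-linked list, which holds Nfe2l2 itself and the gene of its inhibitor Keap1 beside known targets, showed no shared direction. Of its 19 measured genes 9 lay above 0, Nfe2l2 among them, with a median change of -0.06 and 0 called. Nqo1, a quinone reductase and a classical NRF2 target, read 5.06, 4.58, 4.77, 5.38 and 5.01 at 3 months and 5.88, 2.86, 1.30, 1.77 and 1.84 at 8 months. Thus 4 of 5 older mice lay at background level and replicate 1 lay above all others (change -2.23 ± 0.90, adjusted p = 0.665). Osgin1, another gene of the list, stood at 5.90 ± 0.78 and 6.99 ± 0.51 (SD, n = 5), a difference of 1.09 ± 0.53 with overlapping groups.

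Dnajb9, an endoplasmic reticulum co-chaperone that binds Hspa5 and is induced when unfolded protein accumulates, ranked among the leading genes. It read 5.29, 4.67, 4.06, 3.69 and 5.86 at 3 months and 6.99, 6.72, 5.99, 7.02 and 7.29 at 8 months. The groups were apart, although the highest young mouse (replicate 5) and the lowest older mouse (replicate 3) nearly met. The difference was 2.09 ± 0.46, 4.25-fold, with an adjusted p of 0.226, and without the female-pattern arrays it was 2.66 (adjusted p = 0.0465). A second probe of Dnajb9 gave a smaller difference of 1.03.

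All 16 measured genes of the endoplasmic reticulum stress list lay above 0, also without mouse 7 and without the female-pattern arrays, with a median change of 0.39 beside 0.04 for all genes. None was called, and 5 had an unadjusted p under 0.05 (Dnajb9, Xbp1, Trib3, Chac1 and Creld2), all higher. Xbp1, the transcription factor spliced by IRE1, read 11.92, 12.10, 11.54, 11.34 and 12.20 at 3 months and 12.64, 12.07, 12.45, 12.44 and 12.71 at 8 months. Only replicate 2 at 8 months, from mouse 7, fell within the young range (difference 0.64 ± 0.20, adjusted p = 0.556). Creld2, a secreted folding factor, had separated groups, with 7.94 to 8.84 at 3 months and 8.94 to 9.78 at 8 months (difference 0.87 ± 0.42). Chac1, a glutathione-degrading enzyme downstream of ATF4, also had separated groups, with 4.06 to 6.15 against 6.33 to 7.41 (difference 1.55 ± 0.71). Trib3, a pseudokinase of the same branch, ranged from 3.86 to 7.60 and from 6.50 to 8.33. Its change of 1.69 stood beside -0.73 in wild-type controls, -1.08 in smoke-exposed knockouts and -1.26 in smoke-exposed wild types. The abundant chaperones differed less: Hspa5 by 0.35 ± 0.25, Calr by 0.36 ± 0.29, Pdia6 by 0.32 ± 0.30 and Hsp90b1 by 0.18 ± 0.18, all with overlapping groups. These 4, with Creld2, are the genes whose promoter windows hold the stress element printed above. The mean level of the list was 7.72 to 8.32 in the young mice and 8.49 to 9.22 in the older mice, without overlap. Such separation was not particular to this list. The replication-dependent histone list, with 11 genes measured, did not overlap either (4.70 to 5.05 and 5.11 to 5.42). The mean level of every other list described did overlap. The median change of the stress list was 0.47 in wild-type controls, 0.21 in smoke-exposed knockouts and 0.11 in smoke-exposed wild types.

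Adam19, a membrane-bound metalloprotease whose human locus is linked to lung function, read 8.84, 8.31, 6.68, 8.49 and 9.11 at 3 months and 10.02, 9.95, 10.10, 10.01 and 9.78 at 8 months. The older mice were closely grouped and lay above all young mice (difference 1.68 ± 0.40, 3.22-fold, adjusted p = 0.327; 2.15 without the female-pattern arrays). Irf2, a transcription factor that restrains interferon responses, read 8.62, 8.37, 6.54, 7.58 and 8.11 against 9.05, 9.33, 9.40, 8.98 and 9.35. Again no older mouse reached down into the young range (1.38 ± 0.36, adjusted p = 0.393), and the difference was 1.72 without the female-pattern arrays. Tm2d1 read 8.91, 8.65, 7.23, 7.05 and 9.38 against 9.53, 9.33, 9.44, 10.42 and 9.67, with replicate 5 of the young mice inside the older range. Its difference was 1.43 ± 0.37 (adjusted p = 0.367), and 2.04 without the female-pattern arrays (adjusted p = 0.0465). In Nfe2l2, Adam19 and Irf2 the lowest of the 10 arrays was the same, replicate 3 at 3 months.

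The other leading higher genes were dim at 3 months. Il1rap, the accessory chain of the interleukin 1 receptor, ranged from 1.84 to 3.35 at 3 months and from 3.47 to 5.43 at 8 months (2.43 ± 0.60). Its second probe gave 0.95. Shmt1, the cytosolic serine hydroxymethyltransferase of folate metabolism, had means of 1.76 ± 0.70 and 3.44 ± 0.76 (SD, n = 5), a difference of 1.67, while its second probe, brighter in septa, gave 0.26. For Zfp51, a zinc finger gene, the means were 2.53 ± 1.02 and 5.03 ± 0.99, and for the odorant receptor gene Olfr1354 they were 1.71 ± 0.40 and 3.25 ± 0.22. In these 4 genes the 3-month mean lay below the receptor-gene level of 3.21, so the size of the difference is poorly fixed. Fancl, a ubiquitin ligase subunit of the Fanconi anaemia pathway, had means of 3.77 ± 0.93 and 6.30 ± 1.12, but its second probe went the other way (-1.07).

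Tubb2a, a beta tubulin, led the lower genes. It read 11.46, 11.50, 11.21, 11.50 and 11.70 at 3 months and 10.51, 9.99, 10.19, 9.12 and 10.50 at 8 months. The young mice lay close together and above every older mouse. The difference was -1.41 ± 0.30, 2.67-fold lower, with an adjusted p of 0.226 (-1.40 without mouse 7, -1.34 without the female-pattern arrays). Tuba1b, an abundant alpha tubulin, read 13.57, 13.99, 13.88, 13.53 and 13.62 against 13.06, 12.75, 13.17, 13.23 and 13.07, again without overlap (-0.66 ± 0.16, adjusted p = 0.327), while its dimmer second probe gave -0.11. Of 16 tubulin genes 12 lay below 0, with a median change of -0.17 and 0 called. At an unadjusted p under 0.05, 4 of them were lower and 0 higher: Tubb2a, Tuba1b, Tubb4b (-0.50 ± 0.20) and the gamma tubulin Tubg1 (-1.23 ± 0.48). Tubulin genes are close in sequence, and signal shared between their probes was not tested. Tubb2a and Tuba1b differed by -0.89 and -0.58 in wild-type controls and by -0.55 and -0.42 in smoke-exposed wild types. In smoke-exposed knockouts they differed by -0.01 and 0.05, and in knockout vessels by 0.82 and 0.25.

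Angptl6, a secreted angiopoietin-like factor, had the largest difference among the 10 lower genes. It read 6.38, 7.36, 7.10, 7.81 and 6.65 at 3 months and 4.50, 3.94, 4.58, 2.24 and 4.55 at 8 months, with the groups apart and replicate 4 of the older mice far below the rest (-3.09 ± 0.69, 8.54-fold lower, adjusted p = 0.226). Npnt, nephronectin, a basement membrane ligand of integrin alpha 8 beta 1, read 11.90, 12.24, 13.12, 12.21 and 11.97 against 11.46, 11.79, 11.18, 11.46 and 11.29. The groups were separated by the small gap between 11.79 and 11.90 (-0.85 ± 0.21, adjusted p = 0.327), and the difference was -1.09 without the female-pattern arrays. A dimmer second probe of Npnt gave -0.24. Apln, the peptide ligand apelin made by capillary endothelium, read 8.31, 8.13, 9.46, 8.48 and 7.60 against 6.87, 6.72, 6.42, 5.95 and 7.75. Replicate 5 of the older mice lay above the lowest young mouse (-1.65 ± 0.43, adjusted p = 0.392), and without the female-pattern arrays the difference was -1.94. Calcrl, another capillary gene and the receptor for calcitonin gene-related peptide, differed by 1.64 ± 0.52, so this list held large differences of both signs.

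Of the remaining lower genes, Api5, an inhibitor of apoptosis, ranged from 9.26 to 9.78 at 3 months and from 7.39 to 8.89 at 8 months (-1.21 ± 0.27). Bcap31, a sorting receptor of the endoplasmic reticulum membrane, went from 10.09 ± 0.26 to 9.00 ± 0.78 and Nfatc1, a calcineurin-regulated transcription factor, from 10.32 ± 0.50 to 9.01 ± 0.87 (means ± SD, n = 5), both with overlapping groups. Wdhd1, a DNA replication factor, and Lrrc17, a secreted leucine-rich repeat protein, had 8-month means of 2.20 and 1.64, below the receptor-gene level.

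**Figure D1:**
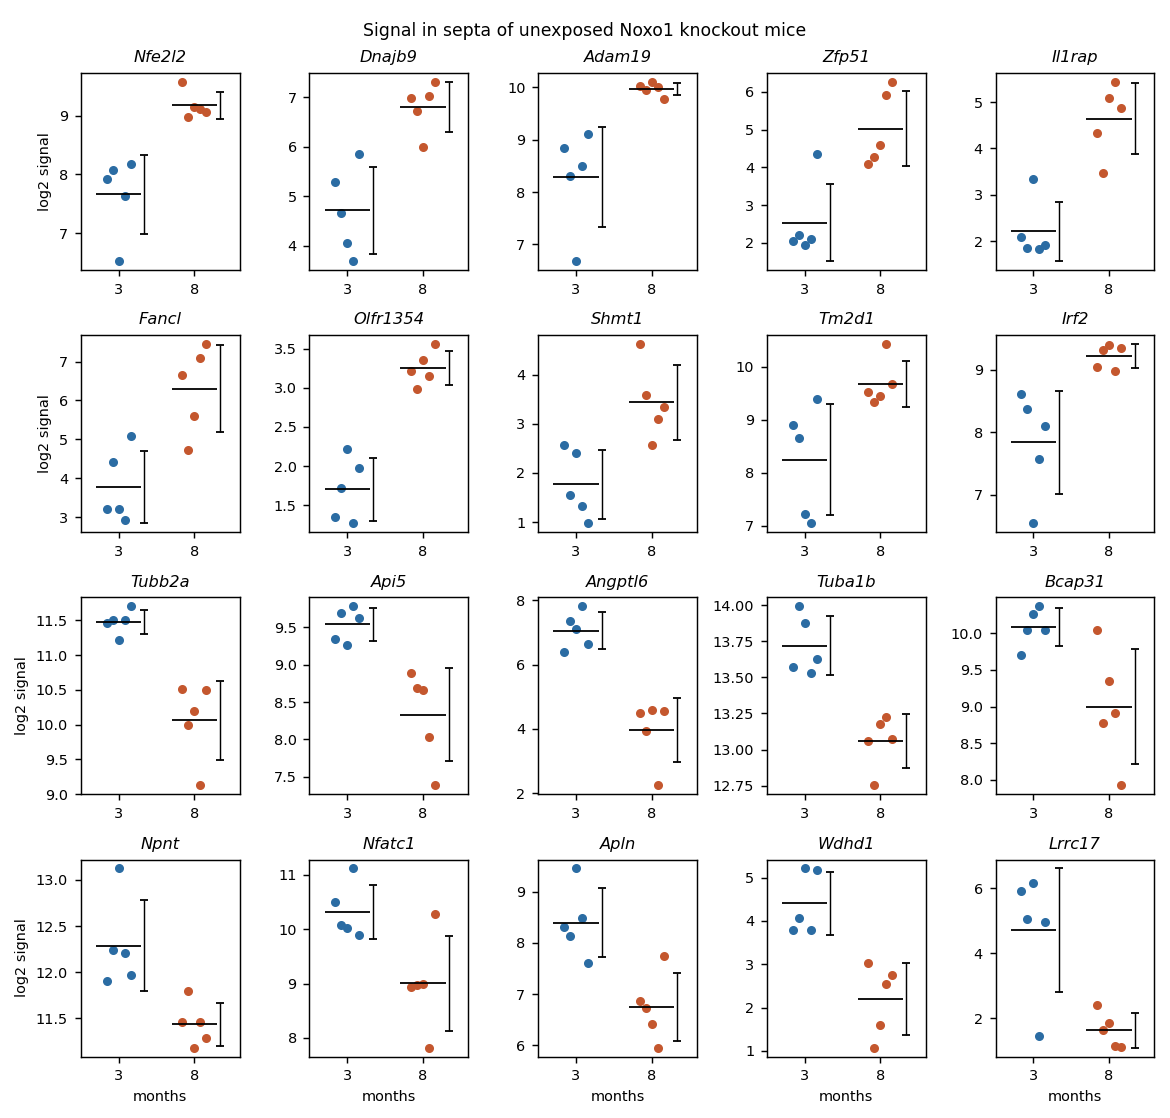
Log2 signal (vertical axis, scaled separately for each gene) of the 20 leading genes in septa of unexposed Noxo1 knockout mice at 3 and 8 months (horizontal axis). Each point is 1 array, horizontal lines are group means and bars 1 SD (n = 5); the groups do not overlap in 12 of the 20 genes.

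Red cell genes had the lowest median change of 56 gene lists. Of 6 measured erythroid genes 5 lay below 0, all 5 with an unadjusted p under 0.05, and the median change was -2.35. Hba-a1, an alpha globin, read 13.64, 13.59, 13.75, 14.67 and 14.28 at 3 months and 12.33, 11.37, 11.37, 12.79 and 10.64 at 8 months. No older mouse reached the young range (-2.28 ± 0.64, adjusted p = 0.400). The beta globin Hbb-bt, which shares near-identical sequence with Hbb-bs, read 11.20, 11.09, 10.61, 11.05 and 11.31 against 9.34, 8.14, 8.61, 10.41 and 5.51, with a wide spread among the older mice (-2.65 ± 0.80). Hbb-bs differed by -2.50 ± 0.86 and Alas2, the erythroid enzyme of haem synthesis, by -2.37 ± 1.16. Epb42, the only member above 0, was below the receptor-gene level in both groups. The mean level of the list was 8.07 to 9.71 at 3 months and 5.89 to 8.74 at 8 months. In a bulk sample, fewer cells of a type and less RNA per cell cannot be told apart. The median change of these genes was -0.71 in wild-type controls, 0.24 in smoke-exposed knockouts and 0.32 in smoke-exposed wild types. The median was -2.17 without mouse 7 and -2.26 without the female-pattern arrays. The lower red cell signal at 8 months lay in the same arrays as the differences above, and its part in them was not tested.

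Neutrophil genes had a median change of 0.58. Of 13 measured, 9 lay above 0, and at an unadjusted p under 0.05 5 were higher and 1 lower, with 0 called. S100a8, a subunit of the calprotectin complex of neutrophil cytosol, read 12.34, 13.12, 10.65, 13.49 and 13.25 at 3 months and 14.31, 13.91, 13.99, 14.57 and 13.53 at 8 months. Its partner S100a9 read 12.57, 12.66, 11.49, 12.72 and 12.72 against 13.68, 13.05, 13.61, 13.68 and 13.04. Both genes had separated groups, with the lowest value in replicate 3 at 3 months (1.49 ± 0.50 and 0.98 ± 0.29). Mmp8, neutrophil collagenase, ranged from 6.74 to 10.85 and from 8.61 to 11.85 (2.18 ± 0.77). Camp, the granule peptide cathelicidin, went the other way without overlap, from 4.87 to 6.61 at 3 months to 3.35 to 4.73 at 8 months (-1.66 ± 0.57). Ltf, lactoferrin, also lay lower (-1.36 ± 0.97). The other members below 0 were Ngp (-0.14 ± 0.63) and Trem1 (-0.14 ± 0.13). The median was 0.67 without mouse 7 and 0.53 without the female-pattern arrays. The mean level of the list overlapped, with 7.87 to 10.24 at 3 months and 8.90 to 10.18 at 8 months.

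Among lymphocyte lists, T and NK cell genes lay mostly below 0 and those of B and plasma cells did not. Of 18 T and NK cell genes 15 lay below 0, with a median change of -0.46, 1 unadjusted p under 0.05 and 0 called. The chemokine gene Ccl5 ranged from 9.38 to 10.79 at 3 months and from 9.05 to 10.00 at 8 months (-0.68 ± 0.27). Gzmk, a granzyme, differed by -0.79 ± 0.44 and the co-receptor Cd4 by -0.44 ± 0.28. Gzma stood out with 0.66 ± 0.44. All 4 had overlapping groups. The T and NK median was -0.39 without mouse 7 and -0.54 without the female-pattern arrays. Of 9 B cell genes 5 lay above 0 (median 0.15), and of 8 plasma cell and immunoglobulin genes 6 did (median 0.25), with 0 called.

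Genes known to be induced by glucocorticoids had a median change of 0.55, with 12 of 14 above 0 and 4 at an unadjusted p under 0.05. Cebpd, a transcription factor of the acute phase response, read 11.31, 11.73, 10.41, 10.65 and 11.50 at 3 months and 12.36, 12.09, 11.82, 11.79 and 12.06 at 8 months. The groups were just separated (0.90 ± 0.25, adjusted p = 0.398). Lcn2, an iron-binding acute phase protein, differed by 1.11 ± 0.44 and Errfi1, a feedback inhibitor of the EGF receptor, by 0.84 ± 0.38. Among other members of the list, Fkbp5 (0.01 ± 0.45), Tsc22d3 (-0.12 ± 0.17) and Pdk4 (-0.03 ± 0.70) stood near 0, and Klf9 (0.45 ± 0.34), Angptl4 (0.62 ± 0.36) and Zbtb16 (0.36 ± 0.59) lay above it. In wild-type controls these 6 differed by 1.63, 0.46, 2.29, 0.57, 1.84 and 2.32. The median of the list in wild-type controls was 1.00, and a difference between genotypes was not called for any gene.

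Immediate early genes, which respond within minutes to growth factors, stretch or tissue handling, also had a median change of 0.55. Of 23 measured, 20 lay above 0, 6 with an unadjusted p under 0.05, and 0 were called. Ier2 read 4.95, 4.57, 5.65, 4.09 and 3.75 at 3 months and 7.34, 6.17, 5.78, 5.87 and 7.51 at 8 months, without overlap (1.93 ± 0.67, adjusted p = 0.594). Egr1 read 9.14, 13.55, 13.55, 11.76 and 12.43 against 14.28, 12.74, 13.49, 13.66 and 13.71. Its young mice spread widely and replicates 2 and 3 lay within the older range, so the difference of 1.49 ± 0.63 dropped to 0.63 without the female-pattern arrays, which include the lowest young array. Btg2, an antiproliferative gene, differed by 1.32 ± 0.50, Egr2 by 2.18 ± 0.95 and Fos by 1.03 ± 0.53. The mean level of the list was highest in replicate 1 at 8 months (9.83) and lowest in replicate 1 at 3 months (7.82). Its median change was 0.19 in wild-type controls, 0.13 in smoke-exposed knockouts and -0.47 in smoke-exposed wild types. The time between death and freezing is not given in the labels, and its part was not tested.

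Mesothelial genes had the highest median change of all lists and ciliated cell genes the third lowest, but most of the members named here were dim. Of 7 mesothelial genes 5 lay above 0 with a median of 0.72. Upk3b had means of 2.13 ± 0.75 and 3.85 ± 1.46, Lrrn4 1.55 ± 0.29 and 2.34 ± 1.47, and Wt1 2.31 ± 0.64 and 3.22 ± 1.91 (SD, n = 5), so each was below the receptor-gene level at 3 months. Of 12 ciliated cell genes 8 lay below 0 with a median of -0.43. Tekt4 differed by -0.46 ± 0.32 and Rsph1 by -1.24 ± 0.92, and Tekt1 by 1.97 ± 0.77, led by a value of 6.63 in replicate 2 at 8 months, the array of mouse 7, without which it was 1.28.

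**Figure D2:**
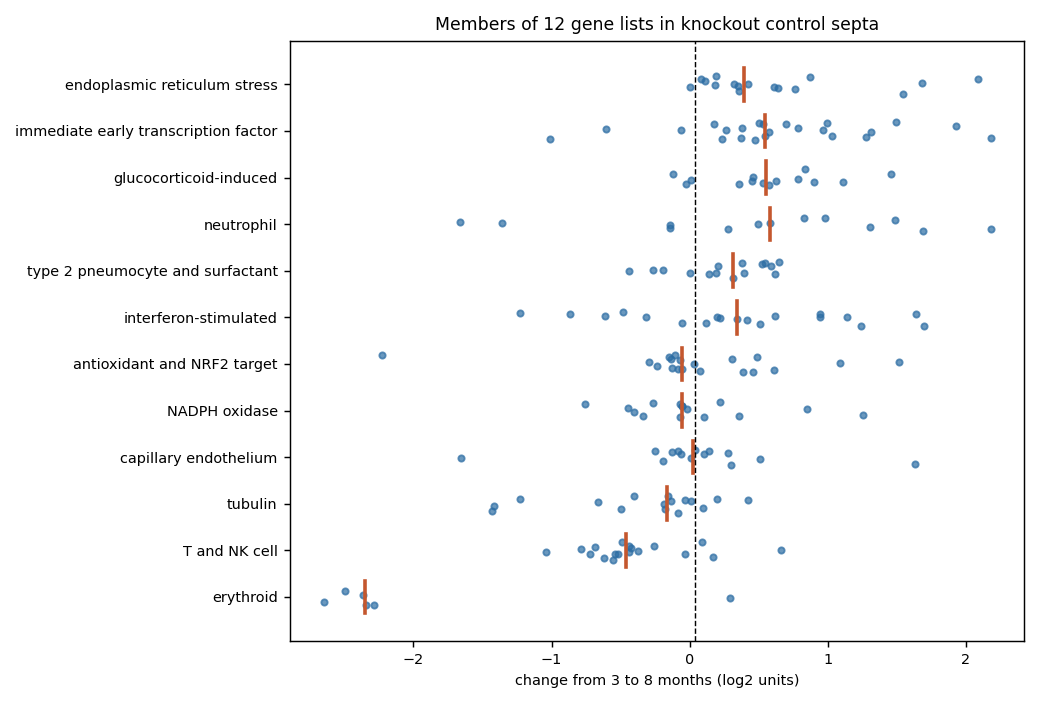
Change from 3 to 8 months in knockout control septa (horizontal axis, log2 units) for the measured members of 12 gene lists. Each point is 1 gene, orange ticks are list medians and the dashed line is the median of all genes (0.04); erythroid genes have a median of -2.35 and all 16 endoplasmic reticulum stress genes lie above 0.

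**Figure D3:**
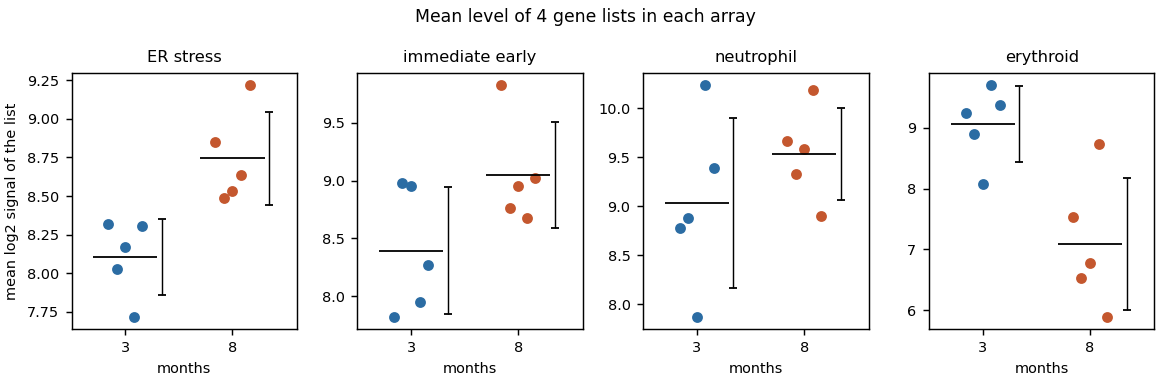
Mean log2 signal of the measured genes of 4 lists (vertical axis, scaled separately) in each septa array of unexposed knockout mice at 3 and 8 months (horizontal axis). Points are arrays, lines group means and bars 1 SD (n = 5). The endoplasmic reticulum stress list does not overlap between times, with 7.72 to 8.32 and 8.49 to 9.22, and the neutrophil list does. The replication-dependent histone list, not drawn here, does not overlap either.

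The NADPH oxidase genes, the family of the deleted gene, showed no shared direction. Of 15 measured members 5 lay above 0, the median change was -0.06, and 0 had an unadjusted p under 0.05. Noxo1 itself read 3.76, 2.28, 1.45, 2.98 and 2.66 at 3 months and 2.29, 3.63, 2.47, 2.79 and 1.61 at 8 months. Both means, 2.63 and 2.56, lay below the receptor-gene level, and the difference of -0.07 was smaller than the spread in either group (exact two-sided permutation p = 0.881, smallest p possible 0.00794). Its sign changed when single arrays were left out, within -0.36 to 0.21. In wild-type control septa the Noxo1 mean was 3.98 at 3 months, above that level, and 3.04 at 8 months, below it. It was 4.43 and 3.49 in smoke-exposed wild-type septa and 2.05 and 2.46 in smoke-exposed knockout septa. A difference in Noxo1 level between genotypes was not tested. Whether the probe lies within the deleted part is not known, and the vessel array of mouse 7 carried a Noxo1 signal of 7.03.

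Of the catalytic subunits, Cybb (NOX2) stood at 9.63 ± 0.61 and 9.56 ± 0.63 and Nox4 at 8.37 ± 0.28 and 7.93 ± 0.63 (SD, n = 5). Nox1, the partner of Noxo1, was below the receptor-gene level at both times (1.86 ± 0.79 and 2.72 ± 1.98), as were Nox3 (-0.40 ± 0.31), Duox1 (0.36 ± 0.56) and Duox2 (-0.75 ± 0.49). The membrane subunit Cyba stood at 12.04 ± 0.20 and 11.70 ± 0.43. The phagocyte organizer Ncf1 differed by -0.05 ± 0.48 and the regulatory subunit Ncf4 by -0.06 ± 0.59. Noxa1, the activator that works with Noxo1, had means of 2.46 ± 0.68 and 3.72 ± 0.97 and the largest difference of the family, 1.26 ± 0.67 (adjusted p = 0.738). The GTPases Rac1 and Rac2 differed by -0.02 ± 0.13 and -0.26 ± 0.42, and the maturation factors Duoxa1 and Duoxa2 by 0.10 ± 0.51 and 0.22 ± 0.36. The SE of these differences ran from 0.13 for Rac1 to 0.67 for Noxa1, so small changes of most members could not be resolved.

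Other pathways were described by the same counts, with 0 called in each. Of 15 type 2 pneumocyte genes 12 lay above 0 (median 0.31), among them Hc, a complement component (0.65 ± 0.25), and Sftpd, a surfactant collectin (0.38 ± 0.20). Of 19 interferon-stimulated genes 13 did (median 0.34), 4 with an unadjusted p under 0.05: Irf7 (1.64 ± 0.72), Ifit1 (1.70 ± 0.76), Oasl2 (0.95 ± 0.44) and Oas1a (1.14 ± 0.54). Of 23 genes of the BMP and TGF-beta pathways 14 did (median 0.17). Id1, a direct target of BMP signalling, ranged from 8.10 to 10.63 at 3 months and from 10.72 to 10.99 at 8 months, without overlap (1.34 ± 0.37, adjusted p = 0.393). Its paralogue Id3 differed by 1.23 ± 0.46 with overlapping groups. Of 19 collagen genes 9 lay above 0 (median -0.03). Col4a3 and Col4a4, chains of the alveolar basement membrane network, both had separated groups and were lower at 8 months (-0.90 ± 0.41 and -0.99 ± 0.35). Of 21 proliferation genes 13 lay above 0 (median 0.09). Genes named in this paragraph, and members of the stress, immediate early, tubulin, antioxidant, glucocorticoid and leukocyte lists named beyond the leading 20 and the 3 lowest p of each extreme list, were chosen after their values were seen.

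The 3 other pairs of septa groups in the series (wild-type controls, smoke-exposed knockouts and smoke-exposed wild types, 29 arrays) share no mouse number with the knockout controls. Their mean time effect was taken as a reference. Both contrasts came from 1 fit and share its estimate of each gene's spread, and a collection or processing time that goes with the 3 and 8 months may be common to all pairs. This contrast was added after the data were seen. It called 429 genes (2.07%), 274 higher and 155 lower at 8 months. Of the 274, 248 lay above 0 in the knockout controls (90.5%, against 53.2% of all genes), and 99 had an unadjusted p under 0.05 in the same direction (36.1%, against 4.06%). Of the 155, 137 lay below 0 (88.4%, against 46.8%), and 34 had such a p (21.9%, against 2.92%). None of the 429 had an unadjusted p under 0.05 in the opposite direction. The medians in the knockout controls were 0.55 and -0.46, against 0.93 and -1.04 in the pairs that chose the genes, where the choice itself favours large values. Counts were 247 and 137 without mouse 7 and 254 and 135 without the female-pattern arrays. When the reference was fitted on its own 29 arrays and the knockout controls on their 10, so that no variance estimate was shared, the reference called 387 genes. Of these, 228 of 251 higher genes (90.8%) and 119 of 136 lower genes (87.5%) had the same direction in the knockout controls. An unadjusted p under 0.05 in that direction was found for 105 (41.8%, against 4.31% of all genes) and 37 (27.2%, against 3.37%), and in the opposite direction for 1. Without mouse 29 the reference called 428 genes. A joint fit over all 76 arrays with a mouse block called only 94 genes in the reference, of which 62 of 66 higher and 25 of 28 lower genes had the same direction in the knockout controls.

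Of the 20 leading genes, 6 were called in the reference by limma, against 2.07% of all genes. Nfe2l2 (1.15 ± 0.17, adjusted p = 0.000149), Tm2d1 (1.40, adjusted p = 0.000269), Adam19 (1.09, adjusted p = 0.00568) and Irf2 (0.87, adjusted p = 0.0168) rose. Npnt (-0.77, adjusted p = 0.000381) and Nfatc1 (-0.79, adjusted p = 0.0168) fell. Both contrasts share each gene's estimate of spread, which also entered the p that chose these 20, so the 2 choices are not independent. In all, 9 of the 10 higher genes lay above 0 and 9 of the 10 lower genes below 0 in the reference, where 51.5% of all genes lay above and 48.5% below. By pair, the same directions held for 9 and 10 genes in wild-type controls, for 8 and 8 in smoke-exposed knockouts, and for 7 and 8 in smoke-exposed wild types. In the vessels of the knockout controls they held for 7 and 6. Of all genes, 51.1%, 52.3%, 49.2% and 50.6% lay above 0 in these 4 pairs, in the same order. Nfe2l2 differed by 1.27 ± 0.31, 1.17 ± 0.29 and 1.02 ± 0.29 in the 3 other septa pairs and by 0.21 ± 0.35 in the vessels.

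**Figure D4:**
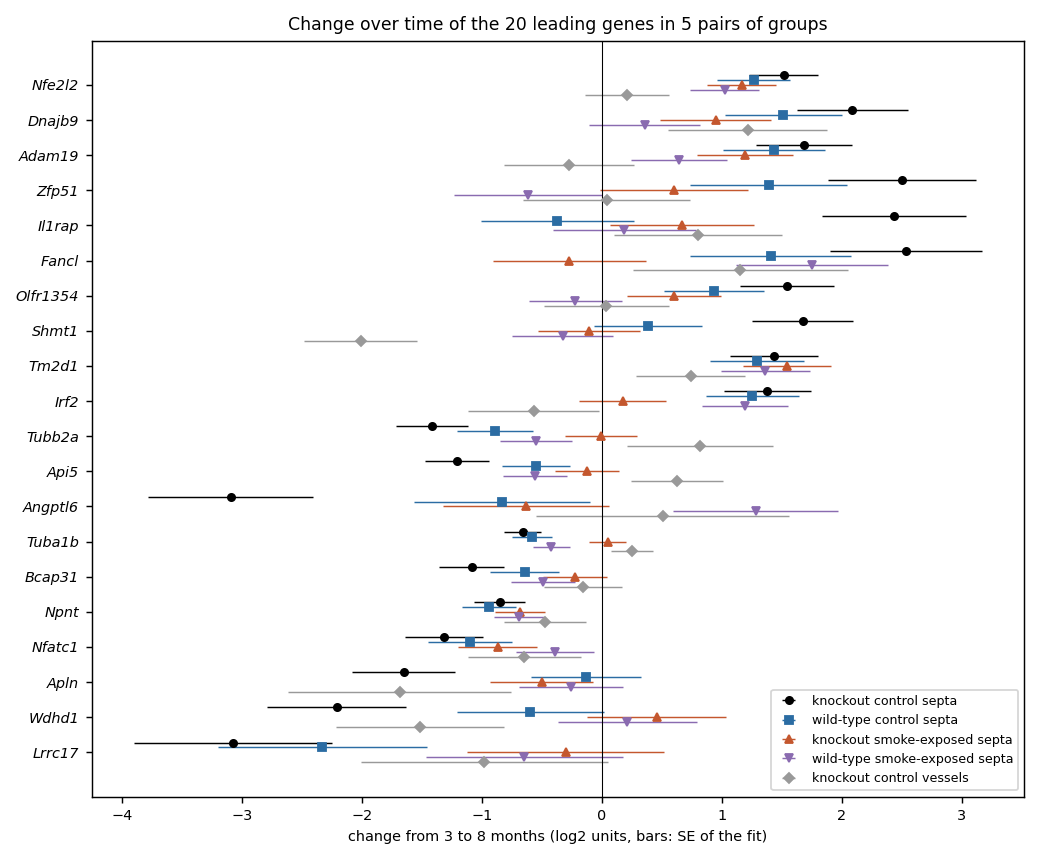
Change from 3 to 8 months (horizontal axis, log2 units, bars 1 SE of the fit) of the 20 leading genes of knockout control septa in 5 pairs of groups, marked by symbol. In wild-type control septa 9 of the 10 higher and 10 of the 10 lower genes share the direction; in knockout control vessels 7 and 6 do.

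Further genes that rose in the reference are named here after both values were seen, and not by rank of p. Cap1 (0.99 ± 0.28) and Fry (1.03 ± 0.29), for example, had a lower p in the knockout controls than Wfdc21 and Lamp2 below. Prcd read 2.95, 1.47, 1.93, 3.57 and 3.15 at 3 months and 4.15, 4.59, 5.17, 5.10 and 5.74 at 8 months, without overlap (2.34 ± 0.62, reference 2.05). Wfdc21, a secreted protein abundant in neutrophils, ranged from 3.75 to 9.05 and from 8.09 to 10.75 (2.31 ± 0.68, reference 2.09). Plek, a leukocyte substrate of protein kinase C, differed by 1.56 ± 0.42, the cysteine protease Ctsh by 1.08 ± 0.30 and the lysozyme gene Lyz1 by 0.79 ± 0.23. Lamp2, a lysosomal membrane protein, was closely grouped at 8 months (12.71 to 12.93) above 11.04 to 12.55 at 3 months (0.90 ± 0.27, reference 0.72).

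Genes that fell in the reference were also chosen after both values were seen, and not by rank of p. Septin4 (-0.96 ± 0.26) and Mamdc2 (-1.37 ± 0.38) had a lower p in the knockout controls than every gene named in this paragraph below. Bgn, biglycan, a small proteoglycan, ranged from 10.19 to 11.34 and from 8.63 to 10.34 (-1.10 ± 0.31, reference -0.67). Itga1, the collagen-binding integrin alpha 1, differed by -1.03 ± 0.37 (reference -1.20) and Utrn, utrophin, by -1.13 ± 0.37 (reference -1.23). Plagl1, an imprinted zinc finger gene, read 12.02, 11.94, 11.83, 11.62 and 11.52 against 10.84, 10.93, 11.02, 10.18 and 11.48, separated by a narrow gap at replicate 5 of both groups (-0.89 ± 0.30, reference -0.85). Hhip, an inhibitor of hedgehog signalling whose human locus is linked to lung function, ranged from 4.91 to 6.38 and from 2.12 to 5.80 (-1.62 ± 0.74, reference -1.76).

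**Figure D5:**
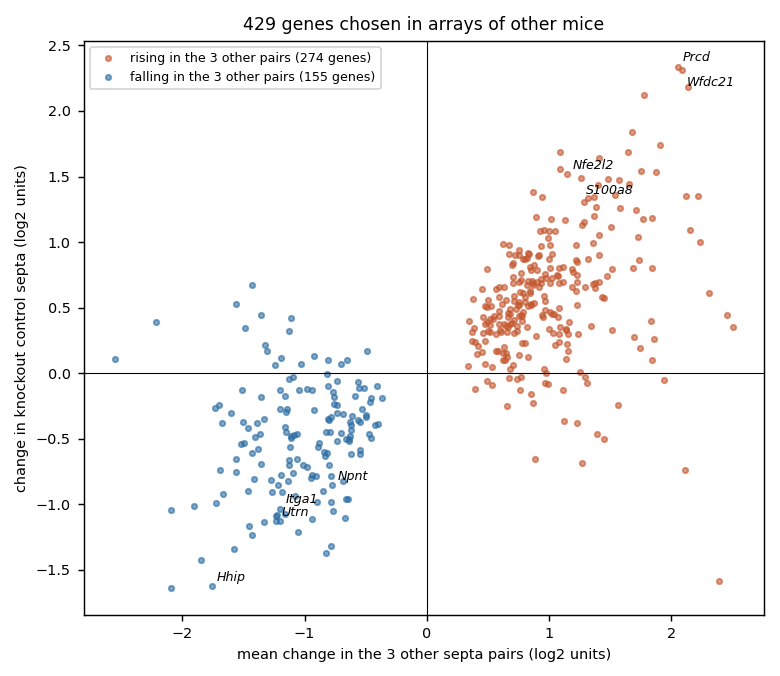
Change from 3 to 8 months in knockout control septa (vertical axis) against the mean change in the 3 other septa pairs (horizontal axis, both in log2 units) for the 429 genes called in the latter. Each point is 1 gene; 248 of 274 orange points lie above 0 and 137 of 155 blue points below 0 on the vertical axis.

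The time effect itself was compared between pairs of groups by 3 tests of the difference. Between knockout and wild-type controls no gene passed (0 of 20710 in limma, with 803 genes, 3.88%, at an unadjusted p under 0.05). The lowest p belonged to Cplx1 (difference -3.13 ± 0.85), Map1b (5.04 ± 1.44), Myct1 (2.35 ± 0.67), Ccrl1 (3.68 ± 1.06) and Gbp8 (3.31 ± 0.95), in that order. Map1b, a microtubule-associated protein, changed by 0.11 in knockouts and by -4.93 in wild types. Between control and smoke-exposed knockouts no gene passed either (0 called, 881 genes, 4.25%, at an unadjusted p under 0.05). There the lowest p belonged to Cacng7 (4.04 ± 1.02), Traf3ip1 (-3.29 ± 0.84), Prr13 (2.19 ± 0.58), Chst15 (-1.62 ± 0.44) and Nudt19 (-2.96 ± 0.81). Of these, Prr13 was higher at 8 months in knockout controls (1.16) and lower in smoke-exposed knockouts (-1.03). For Hba-a1 the difference was -1.79 against wild-type controls and -2.25 against smoke-exposed knockouts, and neither passed.

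Between septa and vessels of the knockout controls, 3 genes passed (0.0145% of all genes), and 1691 (8.17%) had an unadjusted p under 0.05. Trak2, an adaptor that carries mitochondria along microtubules, differed by -5.73 ± 0.91 (adjusted p = 0.000466): septa went from 8.67 ± 0.53 to 7.28 ± 1.62 (SD, n = 5) and vessels from 4.63 ± 2.87 (n = 4) to 8.98 ± 0.49 (n = 5). Mff, the mitochondrial fission factor, differed by -3.10 ± 0.61 (adjusted p = 0.0210), with septa at 9.37 and 8.59 and vessels at 7.25 and 9.57. Shmt1 differed by 3.68 ± 0.64 (adjusted p = 0.00193), with septa at 1.76 and 3.44 and vessels at 3.99 and 1.98. The Shmt1 means of young septa and older vessels lay below the receptor-gene level and its second probe differed by 0.26 in septa, so the size of its difference is poorly fixed. In all 3 the vessel change (4.35, 2.32 and -2.01) was larger than the septa change and opposite to it. Without the septa array of mouse 7 the differences were -6.03, -3.16 and 3.64, and without its vessel array -5.87, -3.28 and 3.58, each still called. The call of Mff was lost when any of 7 other arrays was left out: septa replicates 2 and 4 at 3 months and 5 at 8 months, and vessel replicates 3 and 4 at 3 months and 1 and 3 at 8 months. Trak2 and Shmt1 were called in all 7 of these fits. Rnf183 (4.70 ± 1.00, adjusted p = 0.0652) and Rgag4 (-5.73 ± 1.29, adjusted p = 0.118) followed without passing. The count was 7 without vessel replicate 1 and 10 without vessel replicate 2 at 3 months.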

How the data were processed

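RNA from alveolar septa and vessels of 40 mice was measured on 76 arrays in 16 groups. The deposited table holds the authors' normalized log2 signals, from 0.94 to 15.793, for 62976 features. Quartiles of the arrays differ by at most 0.0024, so arrays had been put on a common distribution before deposit. Limma is named in the submitters' processing notes, without a version; the background correction and any filter are not given in the sources used here.

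Features were named through the platform's gene table, with symbols updated by accession through RefSeq (GRCm38.p6): 31465 have 1 symbol, of which 29050 matched by accession, and 31511 without a symbol were not analysed. Features with an empty cell (671) were left out. For each of 20710 genes the feature with the highest mean over all arrays was used. Promoter sequences are RefSeq's, of the same build.

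Group means of the 39 septa arrays were fitted with limma 3.58.1 in R 4.3.3 (lmFit, eBayes with trend, 31 residual degrees of freedom), with Benjamini-Hochberg adjustment over all genes and a threshold of 0.05. Septa were set against vessels in 1 fit over 76 arrays with the mouse as a random block (consensus correlation 0.026, kept in fits that leave out an array). The single-gene test for Noxo1 was an exact permutation test. The pipeline was tested on simulated data. Tables were handled in Python 3.11.15. Sex patterns were called from Xist against Eif2s3y alone. Kdm5d and Uty did not enter the call and were dim in some male-pattern arrays, such as knockout control septa replicate 4 at 3 months (2.90 and 2.72).

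Named genes were to be those with adjusted p under 0.05. As none passed, the 10 with the lowest p in each direction, above the 25th percentile of mean signal and with a gene name other than a model number, were taken. To these were added Noxo1 and the NADPH oxidase genes, 3 members of the 3 highest and 3 lowest of 56 lists by median change, and the 5 genes with the lowest p in each difference between time effects. The members, lists and tests were chosen with earlier results of these data known. Lists are described by counts and medians, without a set test. Alternatives were the mean of all probes, only the 10 arrays compared, sex as a covariate, array weights, a replicate block, other filters and leaving out each array.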

Additional observations from a re-analysis of the deposited data

Results flagged for a closer look

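In 134 groups of 5 arrays, for 67 named genes, 14 held a value far from the other arrays of its group, where about 1 in 20 groups would by chance. At 3 months the lone high values were Zfp51 in replicate 5 (4.34), Il1rap in replicate 3 (3.35), Npnt in replicate 3 (13.12) and Nox1 in replicate 4 (3.23). The lone low values at 3 months were Lrrc17 in replicate 4 (1.46), S100a9 in replicate 3 (11.49), Lrrn4 in replicate 2 (1.05), Ncf4 in replicate 3 (4.67) and Map1b in replicate 4 (2.48). At 8 months Nfe2l2 was high in replicate 1 (9.57) and Tekt4 in replicate 2 (7.12), while Angptl6 was low in replicate 4 (2.24), Cd4 in replicate 1 (6.49) and Cybb in replicate 2 (8.44). Of the 14, 4 lay on replicate 3 and 3 on replicate 4 at 3 months.

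For 3 genes the time effect differed between septa and vessels of the knockout controls by the test of the difference in limma: Trak2 (-5.73), Shmt1 (3.68) and Mff (-3.10).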

How the results depend on the processing

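For the 20 leading genes and Noxo1, 453 of 462 values over 22 settings kept their direction and their side of the threshold, and 4 passed it that had not before. The count of genes called between 8 and 3 months was 1 with the mean of all probes (Nfe2l2), 2 with only the 10 arrays compared (Hba-a1 and Hba-a2) and 3 without the female-pattern 3-month arrays, an alternative chosen after seeing the data (Dnajb9, Nfe2l2 and Tm2d1). It was 0 in the other settings, among them renewed quantile normalization, centring on the 75th percentile, array weights, a filter on dim genes and leaving out each array. Noxo1 changed sign without 3-month replicate 1 (0.21), 3-month replicate 4 (0.02) or 8-month replicate 5 (0.17), without the female-pattern arrays (0.32), and without those and mouse 7 (0.048), and ran from -0.36 to 0.21 when each array was left out. The septa against vessel count ran from 2 to 10 when each array was left out. The reference count of 429 ran from 306 (without wild-type control 3-month replicate 4) to 474, was 387 on the 29 arrays alone, and was 94 in 1 fit over all arrays. The cause of these shifts was not tested. Same-numbered arrays of the 2 times come from different mice, and their correlations (-0.03 to 0.09 over 5 pairs, 2 best with their own number) show no pairing. With the replicate block the count stayed at 0, 0 and 0 for the septa comparisons, and was 4 for septa against vessels and 439 for the reference. Arrays give no counts, so 5 mice a group limit the precision.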
